A study of Mus musculus with 24 samples.

Results

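Immunoglobulin gene segments are the pieces from which B cells and plasma cells assemble antibody genes. The 264 segments described here are all rows of the deposited count table with an immunoglobulin variable (V), diversity (D), joining (J) or constant (C) biotype, out of 56691 genes in all. They comprise 218 V segments (113 Ighv, 102 Igkv and 3 Iglv), 19 D segments, 14 J segments (4 Ighj, 5 Igkj and 5 Iglj) and 13 constant genes (8 heavy, Igkc and 4 Iglc). The series sequenced RNA from mice with surgically induced endometriosis, the growth of womb lining at other sites, and from sham-operated mice, with 24 libraries in 6 groups of 4. Surgery took place at 8 weeks of age, tissue was taken on pregnancy day 3.5 after mating at 1 month or 3 months, and the background was labelled as mixed C57BL/6 and SV129. The lesion groups (ectopic tissue, 1 and 3 months) were labelled Pgrcre/+Rosa26mTmG/+. The eutopic groups (the uterus of mice with endometriosis, 1 and 3 months) and the sham groups (the uterus of sham-operated mice, 1 and 3 months) were labelled Rosa26mTmG/+. The series text gives the Pgrcre allele, in which Cre is driven by the progesterone receptor gene, for the mice with endometriosis, so genotype and tissue cannot be told apart. All mice at 1 month and the sham mice at 3 months were labelled fertile, and those with endometriosis at 3 months subfertile. Since nothing in the labels says which animal gave which library, p-values measure the spread between samples, which may in part be technical.

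In a developing B cell, one V, one J and, in the heavy chain, one D segment are joined, and the joined exon is spliced to a constant gene that sets the class. Ighm and Ighd encode the heavy chains of resting B cells (IgM and IgD), Ighg1, Ighg2b, Ighg2c and Ighg3 those of IgG, Ighe that of IgE, and Igha that of IgA, the class known for secretion at mucosal surfaces, the uterus included. Light chains are kappa (Igkv, Igkj and Igkc) or lambda (Iglv, Iglj and Iglc). The heavy chain genes lie on chromosome 12, the kappa genes on chromosome 6 and the lambda genes on chromosome 16.

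V segments named for high values in lesions are shown first. Each sequence is the last 300 bases of the coding part of the spliced transcript in GENCODE M21 (build GRCm38). It runs 5′ to 3′ on the coding strand. The counts were made on build mm39, so no coordinates are given. Ighv11-2 and Igkv14-126 led the heavy and kappa chains of lesion library 2 at 1 month. Ighv1-11 and Igkv8-16 were higher in every lesion library than in every eutopic library at both times. Capitals mark the last match of TANNNNTGN, which fits the tyrosine, any residue and cysteine codons that close the conserved framework before the junction. It was searched in all reading frames of the coding strand alone.
Ighv11-2: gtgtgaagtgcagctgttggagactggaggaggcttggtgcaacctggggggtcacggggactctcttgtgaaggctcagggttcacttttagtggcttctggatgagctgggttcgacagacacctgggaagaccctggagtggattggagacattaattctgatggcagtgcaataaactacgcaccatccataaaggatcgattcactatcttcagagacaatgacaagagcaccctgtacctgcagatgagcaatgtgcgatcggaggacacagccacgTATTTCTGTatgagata
Igkv14-126: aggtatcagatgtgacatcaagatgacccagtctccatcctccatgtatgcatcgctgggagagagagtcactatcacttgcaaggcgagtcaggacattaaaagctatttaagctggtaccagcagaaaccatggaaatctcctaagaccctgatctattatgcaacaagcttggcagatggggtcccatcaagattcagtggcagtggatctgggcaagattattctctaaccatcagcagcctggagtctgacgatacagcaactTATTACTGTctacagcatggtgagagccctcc
Ighv1-11: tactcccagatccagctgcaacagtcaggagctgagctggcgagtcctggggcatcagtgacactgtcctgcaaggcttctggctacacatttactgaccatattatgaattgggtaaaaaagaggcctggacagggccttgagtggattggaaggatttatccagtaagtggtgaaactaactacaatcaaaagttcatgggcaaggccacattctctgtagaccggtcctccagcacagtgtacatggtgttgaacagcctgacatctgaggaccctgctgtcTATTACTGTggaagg
Igkv8-16: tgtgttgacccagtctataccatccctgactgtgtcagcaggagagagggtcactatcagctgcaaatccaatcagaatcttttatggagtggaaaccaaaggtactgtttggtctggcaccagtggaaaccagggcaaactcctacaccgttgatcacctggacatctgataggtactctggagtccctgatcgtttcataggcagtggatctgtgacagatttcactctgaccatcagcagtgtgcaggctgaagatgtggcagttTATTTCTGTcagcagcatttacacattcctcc
Within the last 60 bases of the transcript the motif was found in 107 of 113 Ighv segments (94.7%), in 101 of 102 Igkv segments (99.0%) and in 3 of 3 Iglv segments. Antibody V segments form families of near-identical copies, and no source used here says how reads with several matches were counted, so the value of a single V segment is uncertain.

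Total counts per library ran from 4.51e+07 to 5.94e+07. Some lesion libraries held transcripts of other tissues. Lesion library 2 at 1 month had 82926 CPM (counts per 1000000 library counts) over 6 pancreatic acinar markers, and libraries 1, 3 and 4 had 5.27 to 17.3 CPM. Lesion library 1 at 3 months had 20849 CPM over 6 ovarian steroid cell markers, and the 3 others 27.1 to 252 CPM. Skeletal muscle markers summed to 3.18, 36894, 11538 and 5825 CPM in lesions at 3 months. Library 2, the highest, also had the 252 CPM of ovarian markers and the lowest sum of uterine markers (154 CPM). The 7 uterine markers summed to between 1022 and 1563 CPM in the 1-month lesions and between 154 and 1008 CPM in the 3-month lesions, against 1730 to 2005 CPM in eutopic and 1736 to 2160 CPM in sham uterus. In such bulk samples fewer B or plasma cells and less immunoglobulin RNA per cell cannot be told apart.

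Antibody RNA was more abundant in most lesions than in the uterus, and no segment was called lower in lesions. Immunoglobulin counts summed to 12114, 26022, 7799 and 16536 CPM in lesions at 1 month, against 3968, 3004, 2299 and 4139 CPM in eutopic uterus, and 4410 to 6562 CPM in sham. In lesions at 3 months the sums were 205, 15028, 14535 and 29451 CPM, against 3192, 2991, 3362 and 7071 CPM in eutopic uterus and 3979 to 9448 CPM in sham. Every lesion library except library 1 at 3 months, the one with ovarian transcripts, exceeded every eutopic library of its time. Of the 264 segments, 215 passed the filter on low counts in the fit over 24 libraries. At 1 month 45 of these rose in lesions relative to eutopic uterus (17% of all 264 and 20.9% of those tested) and 0 fell, with a Benjamini-Hochberg adjusted p under 0.05 in edgeR's quasi-likelihood test. Over all 22249 genes tested in that comparison, 12% rose and 8.76% fell. At 3 months 49 rose (18.6% of all and 22.8% of those tested) and 0 fell, when 23.4% of all genes rose and 17.1% fell. The share of called segments was therefore near that of all genes at 3 months. At an unadjusted p under 0.05 there were 126 segments at 1 month (58.6% of those tested, against 35.3% of all genes) and 100 at 3 months (46.5%, against 49.1%).

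The fold changes of the tested segments were mostly positive. At 1 month 213 of 215 had a positive log2 fold change with a median of 2.17, against a median of -0.01 over all genes, and at 3 months 208 of 215 with a median of 1.84, against 0.04. These segments passed the filter partly through the groups where they are high. Segments from the same cells can also vary together, so they are not independent. The 45 and 49 called segments shared 26, which is 57.8% of the list at 1 month and 53.1% of that at 3 months. The called list at 1 month held 15 Ighv, 20 Igkv, 1 Iglv, 3 Ighj and 1 Igkj segment and 5 constant genes, and that at 3 months 17 Ighv, 24 Igkv, 1 Iglv and 1 Ighj segment and 6 constant genes. In 109 of 264 segments, untested ones included, the lesion libraries all lay above the eutopic libraries at 1 month, against 17.5% of genes tested. In 0 they lay below, against 14.1%. At 3 months this held for 4 segments, against 10.1% of all genes, namely Ighm, Ighd, Ighv1-11 and Igkv8-16, and 0 lay below, against 13.8%. The counts depended on single libraries. At 1 month they were 25, 15 and 14 without lesion libraries 1, 2 and 4, and 13, 14 and 15 without eutopic libraries 2, 3 and 4. At 3 months 146 were called once lesion library 1 was left out, 31 and 25 once lesion libraries 2 and 4 were, and 23, 24 and 24 without eutopic libraries 1, 2 and 3. In a fit of the compared groups alone, 141 were called at 1 month and 8 at 3 months, and DESeq2 called 105 and 97.

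**Figure D1:**
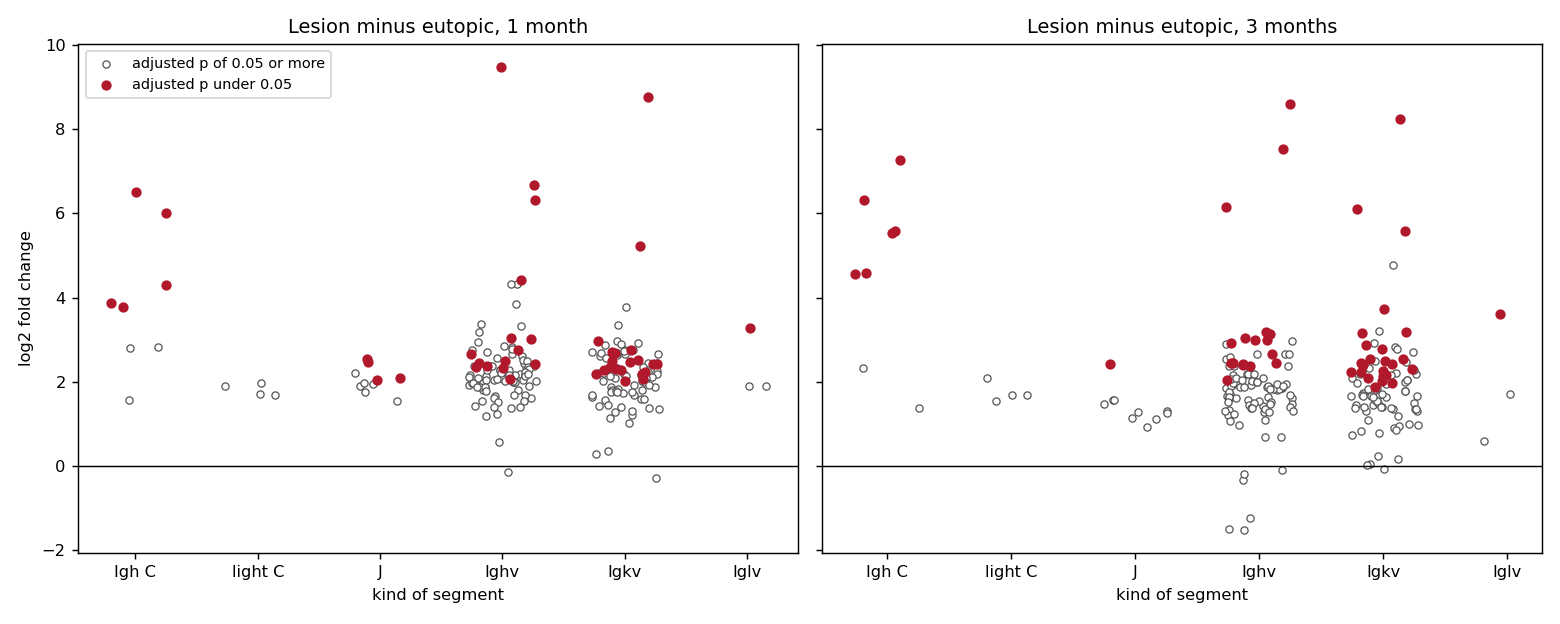
Log2 fold change of each tested immunoglobulin segment in lesions minus eutopic uterus at 1 month (left) and 3 months (right), by kind of segment. Filled points had an adjusted p under 0.05 (45 and 49 segments), and no called segment lies below 0. Ighv11-2 is highest at both times (9.48 and 8.60).

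Ighm, the heavy chain of IgM, rose at both times. It had 1268, 7592, 129 and 871 CPM in the 4 lesion libraries at 1 month, against 26.0, 31.1, 21.4 and 29.6 CPM in eutopic uterus and 18.5 to 32.7 CPM in sham. All lesion libraries lay above all uterine ones, with a log2 fold change over eutopic uterus of 6.51 ± 1.02 (SE, adjusted p = 0.000636), and of 4.79 without lesion library 2 (adjusted p = 0.00168). At 3 months Ighm had 48.4, 2173, 1247 and 729 CPM in lesions, against 20.9, 20.03, 17.95 and 28.9 CPM in eutopic uterus and 14.0 to 27.8 CPM in sham. The groups again did not overlap, even with library 1, and the log2 fold change was 5.58 ± 0.98 (adjusted p = 0.000215), and 4.94 without lesion library 2 (adjusted p = 0.000668).

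Ighd, spliced from the same precursor as Ighm in mature B cells, also rose at both times. It had 17.0, 35.7, 4.73 and 25.0 CPM in lesions at 1 month, against 2.41, 0.761, 0.396 and 0.636 CPM in eutopic uterus (log2 fold change 4.29 ± 0.81, adjusted p = 0.00200). At 3 months the lesions had 0.953, 9.16, 12.4 and 24.3 CPM, against 0.442, 0.642, 0.424 and 0.479 CPM (4.55 ± 0.83, adjusted p = 0.000278). Without eutopic library 1 at 1 month the fold change was 5.09, and without lesion library 4 at 3 months 3.92 (adjusted p = 0.00172 and 0.000943). Neither pair of groups overlapped, though lesion library 1 at 3 months stood close to eutopic uterus.

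Ighg3, an IgG heavy chain, rose at both times. It had 33.1, 34.3, 6.52 and 14.6 CPM in lesions at 1 month, against 0.245, 0.778, 0.182 and 0.167 CPM in eutopic uterus (log2 fold change 6.00 ± 1.36, adjusted p = 0.00564). At 3 months it had 0.355, 406, 22.1 and 37.9 CPM in lesions, against 0.615, 0.249, 0.308 and 1.79 CPM (7.28 ± 1.41, adjusted p = 0.000498). Library 2 carried most of the Ighg3 at 3 months, and library 1 lay within the eutopic range. Library 2 was also the lesion with the most skeletal muscle transcripts, whose part in the result was not tested. Leaving out lesion library 2 gave a fold change of 4.75 at 3 months (adjusted p = 0.00247), and leaving out eutopic library 4 gave 8.20 (adjusted p = 0.00125). Leaving out eutopic library 2 gave 6.78 at 1 month (adjusted p = 0.0163).

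Ighg2b and Ighg2c also passed the test at both times. Ighg2b had 222, 279, 81.9 and 209.8 CPM in lesions at 1 month, against 17.2, 12.03, 13.6 and 11.6 CPM in eutopic uterus (3.87 ± 0.81, adjusted p = 0.00377). The 3-month lesions had 3.997, 232, 92.5 and 549 CPM, against 8.46, 7.64, 9.77 and 10.5 CPM (4.59 ± 0.84, adjusted p = 0.000303). Lesion library 1 at 3 months was the only one below the eutopic libraries. Ighg2c had 198, 227, 78.9 and 118 CPM in lesions at 1 month, against 17.7, 11.7, 8.28 and 7.56 CPM (3.78 ± 1.03, adjusted p = 0.0150). The values at 3 months were 4.97, 297, 181 and 1546 CPM in lesions, against 18.3, 9.49, 8.36 and 7.41 CPM in eutopic uterus (5.54 ± 1.12, adjusted p = 0.000697), with library 1 again lowest. Without lesion library 4 at 3 months the fold changes of Ighg2b and Ighg2c were 3.59 and 3.89 (adjusted p = 0.00115 and 0.00319). The reference build derives from C57BL/6, in which Ighg2c takes the place that Ighg2a holds in 129 mice, and how reads of a 129 allele were counted was not tested.

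Ighg1 passed the test at 3 months alone. It had 203, 187 and 411 CPM in lesion libraries 2, 3 and 4 and 1.55 CPM in library 1, against 3.31, 1.80, 1.60 and 3.26 CPM in eutopic uterus (6.33 ± 1.29, adjusted p = 0.000748, and 5.71 with an adjusted p of 0.00198 without lesion library 4). At 1 month it had 33.5, 140, 23.1 and 76.7 CPM in lesions, against 3.11, 27.6, 1.21 and 7.43 CPM (2.79 ± 1.09, adjusted p = 0.0728). There lesion library 3 lay below eutopic library 2, and without that eutopic library the adjusted p was 0.0372. The change with time of the lesion minus eutopic difference was not called for any segment.

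Igha, the IgA heavy chain, had the most counts of the heavy constant genes in every uterine library, and its difference between lesions and eutopic uterus did not pass the test over all 24 libraries. Igha had 3955, 4778, 3300 and 6295 CPM in lesions at 1 month, against 1773, 1338, 1108 and 1985 CPM in eutopic uterus and 1995 to 3099.5 CPM in sham. The lesion libraries all lay above the eutopic ones, with a log2 fold change of 1.56 ± 0.72 (adjusted p = 0.128). It was called in 5 of 17 alternative fits, with a fold change of 1.36 to 1.69 and an adjusted p of 0.00114 to 0.251 over the 17, and a fit of the compared groups alone was one of the 5 (adjusted p = 0.00208). At 3 months Igha had 47.9, 3934, 5037 and 11179.5 CPM in lesions, against 1479, 1393, 1597 and 3319 CPM in eutopic uterus (1.38 ± 0.72, adjusted p = 0.134). Library 1 lay far below every other library, and without it the fold change was 1.79 with an adjusted p of 0.000610. Igha at 3 months was called in 4 of 17 alternative fits (adjusted p of 0.000409 to 0.762 over the 17). Ighe, the IgE heavy chain, stayed between 0 and 2.64 CPM in lesions and between 0 and 0.290 CPM in eutopic uterus, and was not called at either time (2.83 ± 1.22 and 2.31 ± 1.27).

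**Figure D2:**
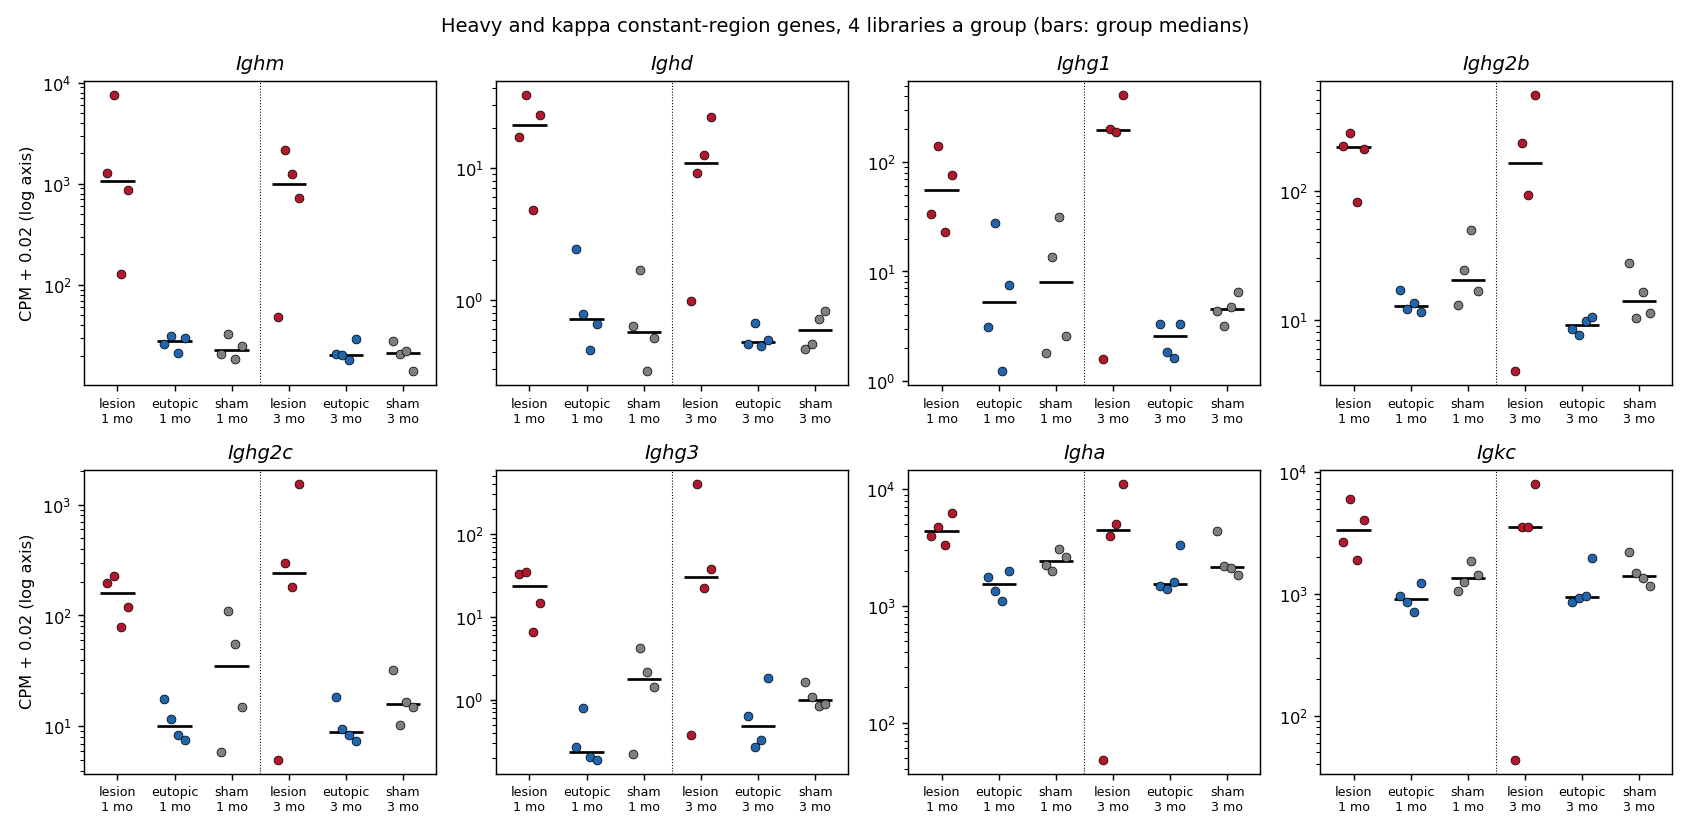
CPM (with 0.02 added, log axis) of 8 constant genes in each library, with lesion, eutopic and sham libraries at 1 month left and at 3 months right of the dotted line, and a bar at each group median. Ighm and Ighd of all 8 lesion libraries lie above the eutopic libraries of their time, and lesion library 1 at 3 months is lowest in Igha (47.9 CPM) and Igkc (43.2 CPM).

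The class mixture differed between lesions and uterus in every library. Igha made up 69.1, 36.5, 91.0 and 82.7% of heavy constant counts in lesions at 1 month and 44.3, 54.2, 74.3 and 77.2% in lesions at 3 months. It made up 94.1 to 97.2% in eutopic uterus at 1 month, 96.6 to 98.4% in eutopic uterus at 3 months and 91.4 to 98.1% in sham. All 8 lesion libraries lay below all 16 uterine ones, if narrowly for lesion library 3 at 1 month. Ighm made up 22.1, 58.0, 3.56 and 11.4% in lesions at 1 month and 44.8, 30.0, 18.4 and 5.04% at 3 months, against 0.568 to 2.19% in the 16 uterine libraries, again without overlap. The 4 IgG genes together made up 8.49, 5.20, 5.25 and 5.51% at 1 month and 10.1, 15.7, 7.12 and 17.6% at 3 months. They made up 0.680 to 3.67% in eutopic uterus and reached 6.97% in sham library 2 at 1 month, which overlaps the lesions. Divided by transcript length, Igha still made up 43.0 to 91.9% in lesions and 91.8 to 98.7% in the uterus, and the lesion with 91.9% then lay above the lowest sham library.

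Within IgG the leading gene varied from lesion to lesion. Ighg2b led in lesion libraries 1, 2, 3 and 4 at 1 month, with 45.6, 41.0, 43.0 and 50.03% of IgG counts. At 3 months Ighg2c led in library 1 (45.7%) and library 4 (60.8%), Ighg1 in library 3 (38.8%) and Ighg3 in library 2 (35.7%). Ighg3 took 1.49 to 6.80% of IgG counts in the 7 other lesions.

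**Figure D3:**
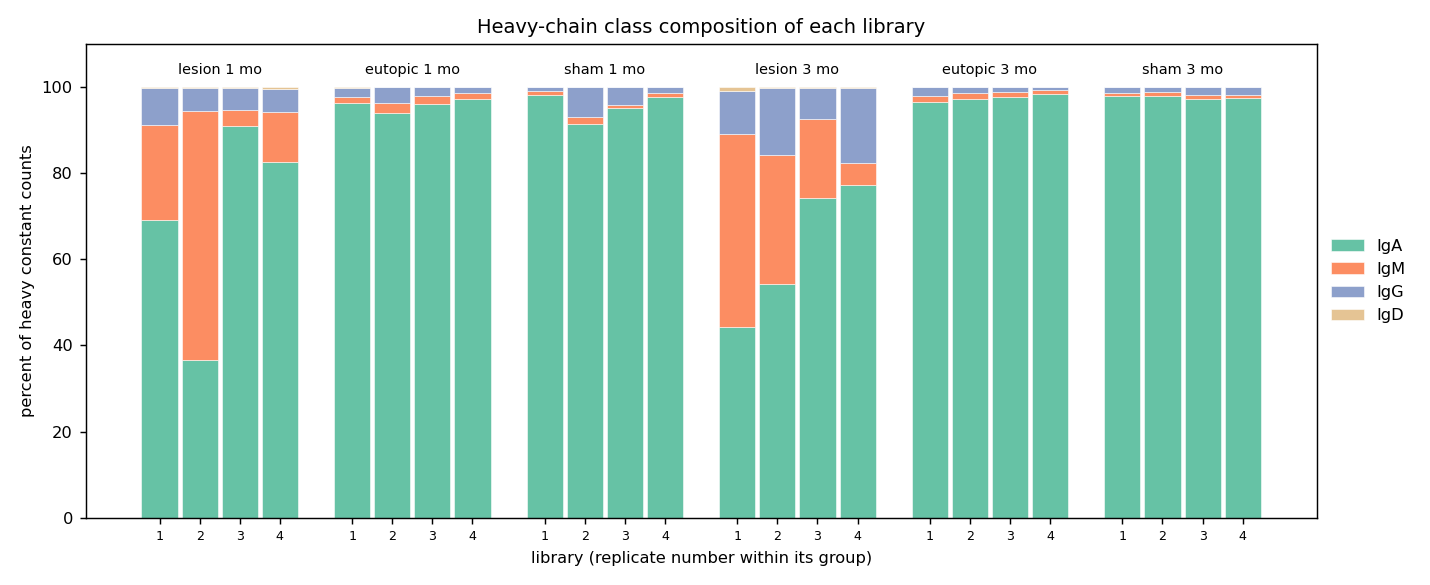
Share of heavy constant counts taken by Igha (IgA), Ighm (IgM), the 4 Ighg genes (IgG) and Ighd (IgD) in each library, grouped as lesion, eutopic and sham at each time. IgA takes 36.5 to 91.0% in lesions and 91.4 to 98.4% in the uterus, and IgM peaks at 58.0% in lesion library 2 at 1 month.

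Light chains were almost all kappa in lesions and uterus alike. Igkc, the kappa constant gene, had 2659, 6058, 1908 and 4053 CPM in lesions at 1 month, against 956, 855, 711 and 1225 CPM in eutopic uterus (1.97 ± 0.72, adjusted p = 0.0571). At 3 months it had 43.2, 3579, 3548 and 8072 CPM, against 858, 922, 969 and 1964 CPM (1.69 ± 0.72, adjusted p = 0.0641, and 0.000151 without library 1). Iglc1, Iglc2 and Iglc3 were not called at either time, with log2 fold changes of 1.53 to 2.08, and Iglc4 had at most 5 counts in a library and did not pass the filter. The 3 lambda constant genes that pass it and Iglc4 took 2.06 to 3.56% of light constant counts in the 1-month lesions and 3.55 to 4.403% in the 3-month lesions. They took 2.77 to 4.42% in eutopic uterus and 1.12 to 4.18% in sham, so lesion and uterine libraries overlapped. Counted over V segments, lambda took 3.27 to 7.81% in lesions, 5.71 to 11.3% in eutopic uterus and 3.85 to 8.13% in sham. Iglv2 was called at both times. It had 25.2, 17.7, 4.405 and 5.43 CPM in lesions at 1 month, against 0.490, 1.57, 2.16 and 1.20 CPM in eutopic uterus (3.28 ± 0.90, adjusted p = 0.0155). The 3-month lesions had 0.112, 23.8, 9.22 and 24.1 CPM, against 0.750, 0.684, 1.17 and 2.07 CPM (3.61 ± 0.91, adjusted p = 0.00393). Iglv1, the lambda segment with most counts, had fold changes of 1.91 ± 0.80 and 1.71 ± 0.79 that were not called. Without lesion library 1 at 3 months Iglc1, Iglc2, Iglc3 and Iglv1 were called, with log2 fold changes of 1.94 to 2.49 (adjusted p of 0.00189 to 0.00896). Without eutopic library 4 at 3 months Iglc1, Iglc3 and Iglv1 were called, with 2.43 to 2.80 (adjusted p of 0.0182 to 0.0462), and without lesion library 4 Iglc3 was at 0.76 (adjusted p = 0.465).

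V segment use was broad in the uterus and in most lesions. The leading Ighv segment took 4.79 to 10.3% of heavy V counts in the 16 uterine libraries and was Ighv3-6 in 10 of them. The leading Igkv segment was Igkv10-96 in 8 uterine libraries, Igkv1-110 in 5 and Igkv1-117 in 3. The Ighv1 family, the largest in mice with 53 segments here, took 48.9 to 54.1% of heavy V counts as the median of each uterine group, and 51.7 and 58.5% as the median in lesions at 1 and 3 months. Thinned to 1164 heavy V counts, the total of the shallowest library, 75.6 to 87.6 Ighv segments would be seen in lesions and 76.3 to 85.0 in the uterus. For kappa, thinned to 1503 counts, the numbers were 69.0 to 77.9 in lesions and 71.7 to 79.6 in the uterus. The number of segments in use thus overlapped between lesions and uterus.

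Evenness of use lay within or near the uterine range in most lesions, but 2 libraries stood apart. The effective number of heavy V segments, the exponential of the Shannon entropy of their shares, was 54.4, 17.9, 53.4 and 54.1 in lesions at 1 month and 24.1, 52.8, 53.3 and 52.4 at 3 months, against 44.8 to 55.9 in eutopic and 47.5 to 62.0 in sham uterus. For kappa it was 46.7, 12.3, 38.9 and 47.1 at 1 month and 36.8, 44.5, 43.1 and 39.2 at 3 months, against 37.4 to 49.6 in eutopic and 42.9 to 51.9 in sham uterus. Lesion library 2 at 1 month was far below the rest in both chains, and library 1 at 3 months in the heavy chain. The second of these rests on 1164 heavy V counts, and the 23 other libraries had 8752 or more. A single segment, Ighv1-11, held 384 of the 1164 counts (33.0%). Its level of 7.17 CPM there lay within the 3.94 to 139 CPM of the other 3-month lesions, so the high share went with few other V counts.

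**Figure D4:**
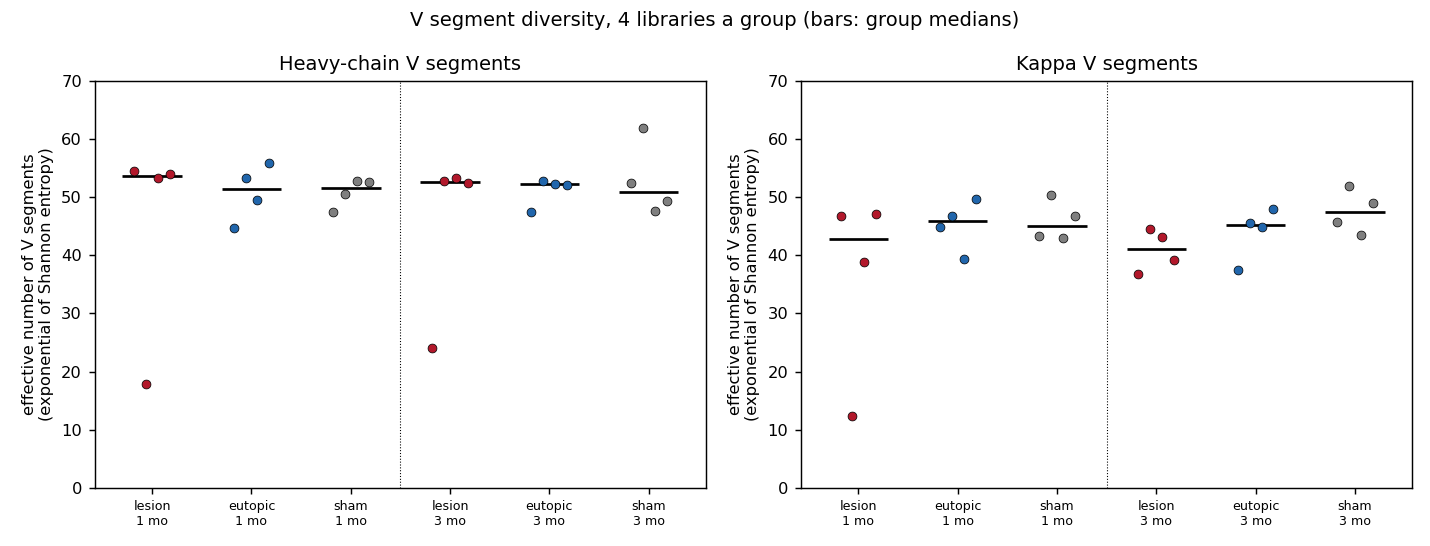
Effective number of heavy (left) and kappa (right) V segments in each library, by group, with a bar at each group median. Lesion library 2 at 1 month has 17.9 and 12.3, lesion library 1 at 3 months has 24.1 in the heavy chain, and all 16 uterine libraries lie between 44.8 and 62.0 (heavy) and between 37.4 and 51.9 (kappa).

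The uneven library at 1 month was led by Ighv11-2 and Igkv14-126, printed above. In mice these are known as the heavy and light chains of antibodies against phosphatidylcholine, made by B-1 cells of the peritoneal cavity. Ighv11-2 had 50.5, 1129, 4.59 and 78.9 CPM in lesions at 1 month, against 0.280, 0.474, 0.0496 and 0.953 CPM in eutopic uterus and 0 to 0.0713 CPM in sham. Igkv14-126 had 95.8, 2113, 10.2 and 161 CPM in the same lesions, against 1.14, 1.03, 0.116 and 3.14 CPM in eutopic uterus and 0.540 to 7.72 CPM in sham. Both rose without overlap of lesion and eutopic libraries (9.48 ± 1.89, adjusted p = 0.00281, and 8.77 ± 1.88, adjusted p = 0.00420). Lack of overlap was also one of the rules that named them. In library 2 they took 44.4% of heavy V and 52.4% of kappa V counts, and in libraries 1, 3 and 4 they took 0.514 to 4.06% and 0.841 to 6.14%. In the 16 uterine libraries the highest shares were 0.276% and 0.902%. That library was also the one with pancreatic acinar transcripts and with the highest IgM share, and their part in the result was not tested. Without it, the fold changes at 1 month were 6.65 for Ighv11-2 and 6.02 for Igkv14-126 and both were called (adjusted p = 0.0174 and 0.0191). Without eutopic library 4 they were 10.2 and 9.60 (adjusted p = 0.0110 and 0.0136).

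At 3 months the same 2 segments were high in fewer lesions. Ighv11-2 had 0, 48.9, 2.46 and 4.35 CPM in lesions, against 0.0192, 0.0621, 0.0193 and 0.0355 CPM in eutopic uterus (8.60 ± 2.16, adjusted p = 0.00361). The eutopic values were 1, 3, 1 and 2 counts, so the size of this fold change is uncertain. Igkv14-126 had 0.0747, 106, 9.16 and 12.3 CPM, against 0.50, 0.621, 0.501 and 1.03 CPM (5.58 ± 1.68, adjusted p = 0.0118). Lesion library 1, with 0 and 4 counts, lay below the eutopic libraries in both and the other lesions above. In shares of V counts, library 2 had 3.66 and 4.23%, library 3 had 0.165 and 0.390%, and library 4 had 0.166 and 0.343%. The eutopic shares at 3 months were at most 0.0343 and 0.162%. The highest shares in the 16 uterine libraries of both times were 0.276 and 0.902%, above lesion libraries 3 and 4. Without lesion library 2 the fold change of Ighv11-2 was 5.98 (adjusted p = 0.0263), and that of Igkv14-126 was 3.43 and not called (adjusted p = 0.0806). At each time the order of the lesion libraries was the same in both segments, as the plot of the segment pairs shows. Between 3 months and 1 month in lesions the log2 fold changes were -4.51 ± 1.48 and -4.22 ± 1.52, which did not pass the test (adjusted p = 0.0547 and 0.0764). Ighv12-3, which with Igkv4-91 forms another known phosphatidylcholine-binding pair, was, like Igkv4-91, chosen after its values were seen. Ighv12-3 had 1.45, 3.51, 1.08 and 0.786 CPM in lesions at 1 month, against 0.0167 to 0.175 CPM in eutopic uterus (4.43 ± 1.49, adjusted p = 0.0404). The values at 3 months were 0, 14.2, 0.476 and 4.54 CPM in lesions, against 0 to 0.195 CPM (6.15 ± 1.59, adjusted p = 0.00457), with fold changes of 4.63 and 7.76 once lesion library 2 or eutopic library 4 was left out (adjusted p = 0.0204 and 0.00670). The call at 1 month was lost without any 1 of lesion libraries 1, 2 and 4 or eutopic libraries 2, 3 and 4 (adjusted p up to 0.107). Igkv4-91 was not called (1.80 ± 0.79 and 1.73 ± 0.79).

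Ighv1-11 and Igkv8-16, the other pair printed above, were near 0 in the uterus and present in all 8 lesions. They were named by a rule that required no overlap of lesion and eutopic libraries, so that separation was set by the choice. Ighv1-11 had 8.21, 7.63, 6.29 and 5.76 CPM in lesions at 1 month, against 0.0700, 0.102, 0.0330 and 0.134 CPM in eutopic uterus and 0.0166 to 0.523 CPM in sham (6.33 ± 1.28 over eutopic, adjusted p = 0.00309). At 3 months it had 7.17, 139, 3.94 and 6.86 CPM in lesions, against 0.0962, 0.269, 0.0771 and 0.390 CPM in eutopic uterus and 0.0478 to 1.13 CPM in sham (7.54 ± 1.30, adjusted p = 0.000186). Igkv8-16 had 5.88, 4.55, 2.79 and 3.02 CPM in lesions at 1 month, against 0.210, 0.220, 0 and 0 CPM in eutopic uterus (5.22 ± 1.26, adjusted p = 0.00782). The 3-month lesions had 2.93, 58.7, 2.002 and 4.54 CPM, against 0.0192, 0.186, 0.0193 and 0 CPM (8.24 ± 1.45, adjusted p = 0.000216). These eutopic values were 1, 9, 1 and 0 counts, so the size of the fold change is uncertain. Without lesion library 2 at 3 months the fold changes were 4.83 for Ighv1-11 and 5.82 for Igkv8-16 (adjusted p = 0.000604 and 0.000618). Without eutopic library 2 that of Igkv8-16 was 5.83 at 1 month and 10.2 at 3 months (adjusted p = 0.0210 and 0.000510). No eutopic or sham library reached the lowest lesion library of its time in either segment.

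Presence of Ighv1-11 and Igkv8-16 in the lesion with the least antibody RNA was required by the rule of no overlap that named them. In lesion library 1 at 3 months, where immunoglobulin counts were lowest, Ighv1-11 had 384 counts, 33.0% of heavy V counts, and Igkv8-16 had 157 counts, 10.4% of kappa V counts. In library 2 of that time, with 5991 and 2526 counts, the shares were 10.4 and 2.33%. In the 6 other lesions they were 0.263 to 0.705% and 0.0852 to 0.293%, against at most 0.149 and 0.0594% in the uterus. At 3 months library 2 carried another segment at a high level, Igkv12-89, with 235 CPM, against 0, 10.5 and 4.43 CPM in lesion libraries 1, 3 and 4 and 0.290 to 2.14 CPM in eutopic uterus. It was called at 3 months (6.10 ± 1.63, adjusted p = 0.00556), with 2.45 and an adjusted p of 0.122 without library 2.

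**Figure D5:**
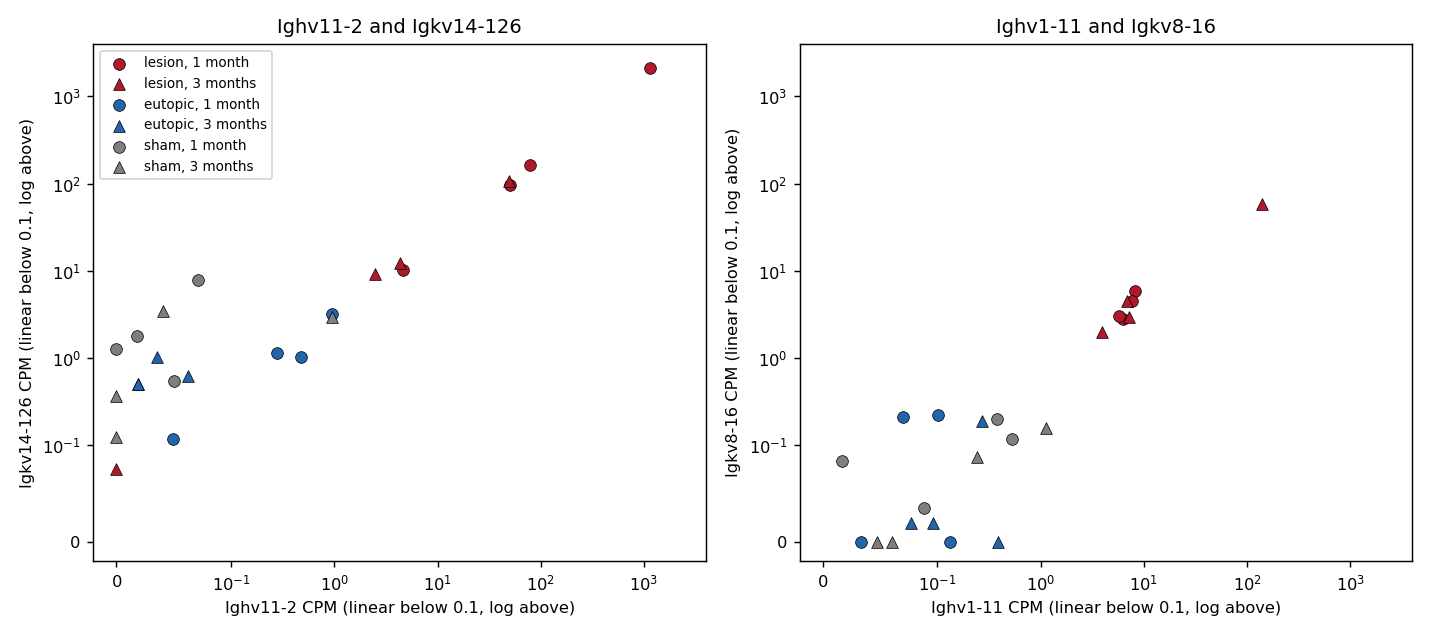
CPM of Ighv11-2 against Igkv14-126 (left) and of Ighv1-11 against Igkv8-16 (right), 1 point per library, on axes that are linear below 0.1 and logarithmic above. The highest lesion has 1129 and 2113 CPM in the left panel and 139 and 58.7 CPM in the right one, where all 8 lesions lie above all 16 uterine libraries.

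The other V segments named had a large mean level or led a lesion library. Of these, Igkv10-96, Igkv1-110, Ighv1-81 and Igkv5-43 were called higher at both times with log2 fold changes of 2.03 to 2.49. Ighv1-81 and Igkv5-43 were named only because each led a lesion library, so their selection favoured high values in lesions. Ighv3-6 was called at 1 month alone (2.48 ± 0.74, adjusted p = 0.0236) and had 1.57 ± 0.72 at 3 months (adjusted p = 0.0871). Ighv1-26, Ighv9-3, Igkv1-117 and Iglv3 were not called at either time, with fold changes of 0.60 to 2.08. Ighv3-6 at 3 months was called without lesion library 1 (adjusted p = 0.00470). All of these calls were lost in some fits without 1 library, while the fold changes over all such fits were 1.83 to 2.69 for the 5 segments called at 1 month and 1.19 to 2.94 for the 4 called at 3 months. At 1 month that of Igkv5-43 was lost without any 1 of the 8 libraries, and that of Igkv10-96 without any but lesion library 3. At 1 month those of Ighv3-6, Ighv1-81 and Igkv1-110 were lost without lesion library 2 or 4 or eutopic library 2 or 3, that of Igkv1-110 also without lesion library 3 or eutopic library 4, and that of Ighv1-81 also without eutopic library 4 (adjusted p up to 0.129 over all 5 segments). At 3 months the calls of Igkv1-110 and Ighv1-81 were lost without lesion library 2, 3 or 4 or eutopic library 2 or 3, that of Igkv1-110 also without eutopic library 1 and that of Ighv1-81 also without eutopic library 4. That of Igkv10-96 was lost without lesion library 4 or eutopic library 1, 2 or 3, and that of Igkv5-43 without lesion library 3 or eutopic library 1 or 2 (adjusted p up to 0.162 over the 4 segments).

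J segments are short and had few counts, and the kappa ones are shown for a feature that sets 1 of them apart. Capitals mark the codons TTC, GGN, NNN and GGN in a row, the phenylalanine, glycine, any residue, glycine stretch of light chain J segments, searched on the coding strand.
Igkj1: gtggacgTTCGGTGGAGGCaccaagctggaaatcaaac
Igkj2: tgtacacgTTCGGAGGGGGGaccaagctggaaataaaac
Igkj3: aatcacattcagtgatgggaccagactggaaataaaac
Igkj4: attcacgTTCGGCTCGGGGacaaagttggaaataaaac
Igkj5: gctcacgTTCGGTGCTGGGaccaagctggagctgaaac
The motif was in 4 of 5 Igkj segments (80.0%) and not in Igkj3. Over the 23 libraries with at least 50 J counts of the kappa locus, Igkj3 took 19.1 ± 3.5% of them (SD), against 28.5 ± 3.6% for Igkj4, 23.8 ± 3.3% for Igkj5, 20.1 ± 3.6% for Igkj2 and 8.59 ± 2.23% for Igkj1. The share of Igkj3 was 17.5 ± 2.3% in lesions at 1 month, against 16.9 ± 4.2% in eutopic uterus, and 19.98 ± 0.53% in 3 lesions at 3 months, against 18.4 ± 4.4% in eutopic uterus, differences within the spread. Over all 24 libraries even Igkj4 had only 2456 counts, against 2578792 for Igkc. How reads over such short segments were counted is not given. Shares of J counts therefore need not be the use of J segments in joined genes. Ighj4 led the heavy J segments with 49.7 ± 5.7% over the same 23 libraries and took 43.5 ± 5.3% in lesions at 1 month, against 48.7 ± 3.9% in eutopic uterus. Ighj1, Ighj2, Ighj3 and Igkj5 were called higher at 1 month, with log2 fold changes of 2.05 to 2.53, and Ighj1 at 3 months (2.41 ± 0.69, adjusted p = 0.00911), while Ighj4, Igkj4 and the leading lambda segment Iglj3p were not. No D segment passed the filter. Ighd4-1 had the most counts of them, 3 to 19 in lesions at 1 month and 0 in eutopic uterus at that time, and 12 of 19 D segments had no count at all.

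Between eutopic and sham uterus no segment was called at either time. Of 202 segments tested at 1 month 0 were called higher and 0 lower, against 0.00943% and 0% of all 21208 genes, and at 3 months 0 and 0, against 0% and 0%. At an unadjusted p under 0.05 there were 34 segments at 1 month (1 higher, 33 lower; 16.8% of those tested, against 4.8% of all genes) and 32 at 3 months (1 higher, 31 lower; 15.8%, against 4.74%). The median log2 fold change was -0.75 at 1 month and -0.62 at 3 months, against 0.01 and -0.00 over all genes. Segments from the same cells can vary together, so these counts are not independent signs of a difference. The eutopic libraries all lay below the sham libraries in 15 of all 264 segments at 1 month, against 1.66% of genes tested. At 3 months they did so in 5, against 0.773%. DESeq2 called 1 lower at 1 month and 2 lower at 3 months. Igha had 1108 to 1985 CPM in eutopic uterus at 1 month, against 1995 to 3099.5 CPM in sham, a difference of -0.67 ± 0.31 without overlap that did not pass the test (adjusted p = 0.879). At 3 months Igha had 1393 to 3319 CPM in eutopic uterus, against 1823 to 4399 CPM in sham (-0.43 ± 0.31, adjusted p = 0.996). Igkc differed by -0.58 ± 0.28 at 1 month and -0.39 ± 0.28 at 3 months, and Ighm by 0.17 ± 0.22 and 0.06 ± 0.22 (adjusted p of 0.879 or more). Ighg2c had 7.56 to 17.7 CPM in eutopic uterus at 1 month, against 5.83, 110, 55.2 and 14.9 CPM in sham (-2.04 ± 0.66, adjusted p = 0.879), with 2 of the 4 sham libraries high.

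Over time little passed the test. In lesions at 3 months relative to 1 month, 0 segments rose and 3 fell, against 6.52 and 4.43% of all genes. The groups did not overlap for 1 segment higher and 3 lower of all 264, against 3.9 and 5.39% of genes tested. The 3 called segments had at most 11.49 CPM in any lesion library. Igkv18-36 had 0 to 0.0465 CPM in lesions at 3 months, against 1.32, 0.426, 0.0551 and 0.419 CPM at 1 month (-4.30 ± 1.05, adjusted p = 0.0127, and 0.0617 without lesion library 1 at 1 month). Igkv3-9 had 0 to 0.0793 CPM at 3 months, against 0.215, 0.239, 0 and 11.49 CPM at 1 month (-6.28 ± 2.02, adjusted p = 0.0498), and the fold was -1.97 with an adjusted p of 0.556 without lesion library 4 at 1 month. The call of Igkv3-9 was also lost without lesion library 1 at 1 month or any 1 of the 4 lesion libraries at 3 months (adjusted p of 0.0596 to 0.105). Ighv6-7 had 1 count over all lesions at 3 months, against 486 counts at 1 month (5.04, 0.825, 0 and 3.02 CPM). The ratio was 0.00217 with a 95% exact interval of 5.49e-05 to 0.0122, which covers counting error only, and the adjusted p was 0.00899. The count of calls was 1 without lesion library 1 at 1 month, and 9 (5 higher, 4 lower) and 5 (5 lower) without lesion libraries 1 and 2 at 3 months.

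The constant genes showed no called change with time. In lesions at 3 months relative to 1 month Ighm had a log2 fold change of -1.23 ± 0.82, Igha of 0.14 ± 0.71, Igkc of 0.05 ± 0.70 and Ighg2c of 1.71 ± 0.95 (adjusted p of 0.270 or more). Without lesion library 2 at 1 month the value for Ighm was 0.47, and without lesion library 4 at 3 months those for Igha and Igkc were -0.61 and -0.62. The change of the lesion minus eutopic difference with time was called for 0 of 215 segments, against 0.454% of genes called higher and 0.315% called lower, and 4 had an unadjusted p under 0.05, against 14.8% of all genes. It was -0.93 ± 1.14 for Ighm and -0.19 ± 1.00 for Igha. DESeq2 called 1 segment lower there. In sham uterus 0 of 202 segments were called between 3 months and 1 month, against 0% of all genes in each direction, with 11 at an unadjusted p under 0.05 (5.45%, against 10.7% of all genes) and 1 called lower by DESeq2. In eutopic uterus 0 were called, against 0% of all genes higher and 0.00943% lower, with 13 at an unadjusted p under 0.05 (6.44%, against 2.48% of all genes) and 0 called by DESeq2.

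Genes of B cells were called higher in lesions as well, and those of plasma cells in part. Of a list of 44 genes of the B and plasma cell pathway, 42 were tested. The list also held genes not particular to these cells, such as antibody receptors and Cxcr4. Among them Fcgr1, Fcer1g, Fcgr2b and Cxcr4 were called higher at both times and are part of the counts that follow. At 1 month 25 were called higher in lesions than in eutopic uterus and 0 lower, with a median log2 fold change of 1.76, when 12% of all genes were called higher and 8.76% lower with a median of -0.01. At 3 months 24 were called higher and 1, Fkbp11, lower (-1.31 ± 0.37, adjusted p = 0.00805), with a median of 1.87, when 23.4% of all genes were called higher and 17.1% lower with a median of 0.04. Fkbp11, a peptidyl-prolyl isomerase of secretory cells, was named after its values were seen. Ms4a1, which encodes the B cell surface protein CD20, had 26.8, 36.7, 6.44 and 37.9 CPM in lesions at 1 month, against 0.0874, 0.169, 0.116 and 0.201 CPM in eutopic uterus (7.53 ± 0.88, adjusted p = 5.23e-05). The values at 3 months were 1.23, 51.0, 17.8 and 39.8 CPM, against 0.115, 0.166, 0.0771 and 0.266 CPM (7.43 ± 0.88, adjusted p = 7.01e-06), so that even library 1 lay above the uterus. Pax5, Cxcr5 and Cr2, chosen after their values were seen, also rose at both times, with log2 fold changes of 6.36 to 7.98. Cr2 is also among the follicular dendritic cell markers below. Blk, another B cell gene, was not called at 1 month (1.45 ± 0.71, adjusted p = 0.148). At 3 months Blk was called (1.88 ± 0.71, adjusted p = 0.0408). Vpreb1 was called at neither time (-0.24 ± 0.50 and -1.03 ± 0.52).

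Jchain, which joins IgA and IgM into polymers, had 1637, 2448, 1133 and 2436 CPM in lesions at 1 month, against 567, 473, 329 and 625 CPM in eutopic uterus (1.94 ± 0.67, adjusted p = 0.0462). At 3 months it had 31.8, 2188, 2575 and 3290.0 CPM, against 478, 534, 521 and 1229 CPM (1.55 ± 0.67, adjusted p = 0.0682, 7.43e-05 without lesion library 1 and 0.0431 without eutopic library 4). Mzb1, an endoplasmic reticulum protein of antibody-secreting cells, rose at 1 month (1.30 ± 0.44, adjusted p = 0.0406) and differed by 0.30 ± 0.43 at 3 months. The calls of Jchain and Mzb1 at 1 month were lost without any 1 of lesion libraries 2 and 4 and eutopic libraries 1, 2, 3 and 4, and that of Jchain also without lesion library 1 (adjusted p up to 0.136). Pigr, the receptor that carries polymeric IgA across epithelium, had 34.9, 179, 111 and 156 CPM in lesions at 1 month and 0.374, 0.651, 164 and 166 CPM at 3 months, against 47.3 to 115 CPM in eutopic uterus, and was not called (0.87 ± 1.03 and 0.26 ± 1.03). At 3 months libraries 1 and 2 lacked most of it and the other 2 lay above the uterus. Rag1, the recombinase that joins V, D and J segments in developing B cells, was at most 0.165 CPM in lesions and was not called (0.14 ± 0.72 and -1.33 ± 0.80). It passed the test at 3 months without lesion library 1 (-2.62 ± 0.95, adjusted p = 0.0284).

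Markers of several cell types were high in the same lesions. The 7 B cell markers summed to 54.1 to 244 CPM in the 1-month lesions and 8.74 to 289 CPM in the 3-month lesions, against 8.56 to 22.6 CPM in eutopic and 11.1 to 21.5 CPM in sham uterus. The 8 plasma cell markers summed to 1598 to 3203 CPM and 371 to 3900 CPM in lesions, against 739 to 1633 CPM in eutopic and 1119 to 1778 CPM in sham uterus. Most of the plasma cell sum was Jchain in every lesion library but library 1 at 3 months. Of these 8 markers, Jchain, Mzb1, Derl3 and Irf4 were called higher at 1 month, and Irf4 and Sdc1 at 3 months. Xbp1 and Tnfrsf17 were called at neither time. Sdc1 was highest in lesion library 1 at 3 months (197 CPM), the lesion with the least antibody RNA. Prdm1, another marker on that list, encodes a transcription factor of plasma cell differentiation. It had 64.4 to 70.5 CPM in the 1-month lesions, against 53.6 to 70.4 CPM in eutopic uterus, and 5.90 to 52.9 CPM in the 3-month lesions, against 44.6 to 68.2 CPM, and was not called (0.15 ± 0.38 and -0.68 ± 0.39). The 3 follicular dendritic cell markers in the table, of 4 on the list, summed to 24.4 to 172 CPM and 0.747 to 218 CPM in lesions, against 0.315 to 0.863 CPM in eutopic uterus. The 9 T cell markers summed to 166 to 508 CPM in the 1-month lesions and 14.8 to 775 CPM in the 3-month lesions, against 27.0 to 59.2 CPM in eutopic uterus. The 5 adipocyte markers summed to 102 to 579 CPM and 48.7 to 1098 CPM in lesions, against 1.70 to 87.7 CPM in eutopic uterus. The 4 high endothelial venule markers summed to 2.7 to 6.62 CPM and 1.38 to 13.6 CPM in lesions, against 1.49 to 8.49 CPM in eutopic uterus. The B cell, plasma cell, follicular dendritic cell and T cell sums of the 1-month lesions all lay above those of eutopic uterus at 1 month, and those of the venule markers overlapped. In lesion library 1 at 3 months all 6 lists were at their lowest among lesions, and its B cell sum of 8.74 CPM lay within the uterine range. The part of these cells in the segment values was not tested.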

How the data were processed

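Total RNA from 24 mouse tissue samples was sequenced. The authors deposited raw read counts per gene. Per the submitters' processing notes the tools were bcl2fastq 1.9.0, STAR 2.7.9a and edgeR, with build mm39; no source used here gives the counting mode, strand setting, annotation or handling of reads with several matches. Groups came from the labels. Totals per library ran from 45133642 to 59407134 counts, and intervals cover counting error only.

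CPM were computed with edgeR's TMM factors. Tests used edgeR's quasi-likelihood test (edgeR 4.0.16 in R 4.3.3, genes filtered with filterByExpr) with Benjamini-Hochberg adjustment over all genes tested and a threshold of 0.05. Comparisons with lesions used all 24 libraries in 1 fit, and those among uterine samples the 16 uterine libraries. Shares, diversity and summed levels are descriptions with no test. The steps were checked on simulated data. Alternatives were DESeq2 1.42.0, limma 3.58.1 (voom), other scaling factors, no filter, only the compared groups, a replicate block, and leaving out libraries. Leaving out lesion library 2 at 1 month together with lesion library 1 at 3 months, and dividing class shares by transcript length, were chosen after seeing the data.

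Members, gene lists and tests were chosen with earlier results of these data known. Named segments were all constant genes, the most abundant V and J segments of each chain, the largest called changes without overlap at a mean log2 CPM of at least 0, the leading V segments of each lesion library, 6 pathway genes, and a few constant genes plus any called segment in the remaining comparisons. Part of the values for pathway genes is not reported here. Deviations from the group means were correlated between same-numbered libraries. Every such pair passed 0.1 only between eutopic uterus at 3 months and at 1 month (0.105 to 0.202). Even there, library 4 at 3 months correlated best with library 2 at 1 month. These groups were taken at different times, so the numbers were not read as a shared animal. The closest replicate pair differed by a chi-square of 20.2 per gene, so none was counted as a repeat of another. Matched sequences came from GENCODE M21 on GRCm38, and the chromosomes from the same annotation.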

Additional observations from a re-analysis of the deposited data

Results flagged for a closer look

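In 28 of 150 groups of 4 libraries 1 library stood apart, with a gap to its nearest neighbour that took more of the group's range than Dixon's 95% critical value. For independent values from a normal distribution about 1 in 20 would be expected. The measures here were correlated, and some segments were chosen because they led single lesion libraries. The 28 of 150 therefore cannot be read as an excess over chance. Lesion library 2 at 1 month stood apart in Ighm (7592 CPM, the others 129 to 1268), Ighv11-2 (1129 CPM, the others 4.59 to 78.9), Igkv14-126 (2113 CPM, the others 10.2 to 161) and the effective number of heavy V segments (17.9, the others 53.4 to 54.4). In the other lesions at 1 month, library 1 had the highest IgG share (8.49%, the others 5.20 to 5.51%), library 3 the lowest Iglc2 (16.6 CPM, the others 35.7 to 38.9) and library 4 the highest Ighe (2.64 CPM, the others 0.0266 to 0.304).

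Lesion library 2 at 3 months stood apart in Ighg3 (406 CPM, the others 0.355 to 37.9), Ighv1-11 (139 CPM, the others 3.94 to 7.17), Igkv8-16 (58.7 CPM, the others 2.002 to 4.54), Ighv11-2 (48.9 CPM, the others 0 to 4.35) and Igkv14-126 (106 CPM, the others 0.0747 to 12.3). Lesion library 1 at 3 months had an effective number of heavy V segments of 24.1, and the others 52.4 to 53.3.

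Eutopic library 4 at 3 months was highest in summed immunoglobulin (7071 CPM, the others 2991 to 3362), Igha (3319 CPM), Igkc (1964 CPM), Iglc1 (59.3 CPM), Iglc3 (13.4 CPM) and Igkv10-96 (64.9 CPM). Eutopic library 1 at 3 months had an effective number of heavy V segments of 47.4, the others 52.1 to 52.8. Eutopic library 2 at 3 months was highest in Ighe (0.290 CPM) and Igkv8-16 (0.186 CPM), eutopic library 4 at 1 month in Ighe (0.284 CPM) and eutopic library 2 at 1 month in Ighg3 (0.778 CPM). Sham library 1 at 3 months was highest in summed immunoglobulin (9448 CPM, the others 3979 to 4760), Igha (4399 CPM), Ighv3-6 (81.7 CPM, the others 12.7 to 17.1) and Ighv11-2 (0.940 CPM, the others 0 to 0.0403).

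Immunoglobulin V pseudogenes, 158 genes outside the segments described above, reached a sum of 75.2 CPM in lesion library 2 of the 3-month group, against 0.685 to 17.4 CPM in the sham libraries. The cause of these values was not tested.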

How the results depend on the processing

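No alternative run called an immunoglobulin segment lower in lesions than in eutopic uterus, but the number called higher moved with the fit. At 1 month, against 45, it was 105 with DESeq2, 159 with limma voom, 24 without the filter, 141 with only the compared groups, 112 without lesion library 2 at 1 month and lesion libraries 1 and 2 at 3 months, and 107 without lesion library 2 at 1 month and lesion library 1 at 3 months. At 3 months, against 49, these were 97, 95, 40, 8, 135 and 145. Leaving out each library in turn gave 13 to 39 at 1 month and 23 to 146 at 3 months. Between lesions over time, against 3, the counts were 6 with DESeq2, 1 with voom, 0 with only the compared groups and 7 without the 2 lesion libraries, and 1 to 9 leaving out each library. The change of the lesion minus eutopic difference gave 1 with DESeq2 and 1 without the 2 libraries. Eutopic minus sham gave 1 with DESeq2 and 1 with voom at 1 month and 2 with DESeq2 at 3 months. Sham over time gave 1 with DESeq2, 4 with voom and 0 to 1 leaving out each library. The cause of these moves was not tested, other than that some fits held fewer samples or more genes.

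With the replicate number as a block, 186 segments were called at 1 month, 2 at 3 months (Ighv1-11 and Igkv8-16) and 0 between lesions over time. Same-numbered libraries correlated by 0.0735 to 0.191 (lesion and eutopic, 1 month), with every lesion library closest to its own number, and by 0.00343 to 0.337 (3 months), so not every pair passed 0.1 and the numbers were not taken to pair these groups, and no label says whether they share an animal. Under the block the 6 calls of constant genes at 3 months were lost, with fold changes of 3.62 to 5.88 (adjusted p of 0.0804 to 0.208), and Pigr at 3 months was -2.50, Igkc -0.64 and Igha -0.61 in lesions over time. In eutopic uterus over time the fit with this block changed no call.

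Of the fold changes recomputed for named genes, 1311 kept direction and side of the threshold, 115 lost and 150 gained a call, and 27 changed sign, none of them called. Ighm in lesions over time was 0.16 with voom, 0.40 without the 3 lesion libraries and 0.88 without the 2, and its change of difference with time was 0.51, 0.70 and 1.18 under the same settings. The change of difference for Igha was 0.53 without the 3 and 0.26 without the 2. Ighm in eutopic minus sham at 3 months was -0.036 with voom. Leaving out each library gave -0.094 to 0.49 for Rag1 at 1 month, -0.11 to 0.64 for Mzb1 and -0.32 to 0.68 for Pigr at 3 months. In lesions over time it gave -0.62 to 0.46 for Igkc, -1.86 to 0.47 for Ighm and -0.61 to 0.55 for Igha. It gave -1.56 to 0.78 for Ighm and -0.93 to 0.23 for Igha in the change of difference, and -0.10 to 0.22 for Ighm in eutopic minus sham at 3 months. Depth limited V use most in lesion library 1 at 3 months, with 1164 heavy V counts.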

Other observations

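The ratio of Iglc1 to Iglv1 counts, a lambda constant gene and the V segment usually joined to it, was 0.246 and 0.276 in sham libraries 2 and 3 at 1 month and 0.127 in sham library 4 at 3 months. In the 8 lesion libraries it was 0.50 to 1.01, and in the 8 eutopic libraries 0.551 to 0.911. In sham library 4 at 3 months Iglc2 took 79.1% of lambda constant counts and Iglc1 6.80%, and Iglv3 took 42.5% of lambda V counts. The mixed strain background was not tested against these ratios.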
